A study of Mus musculus with 6 samples.

Results

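Nos2, the arginases and the genes of alternative activation were examined in sorted mouse microglia with and without PGC-1α overexpression. The group comprised 10 genes, of 23462 with a named probe, and they were taken by symbol. Nos2, Arg1, Arg2 and Odc1 are enzymes that use arginine or its product ornithine. Il4, Il4ra and Stat6 form the IL-4 pathway, Il10 and Il10ra are a cytokine and its receptor chain, and Retnla is a secreted marker of alternative activation. All array probes whose transcript accession belonged to these symbols were kept, which gave 13 probes of 56605. Microglia came from the brains of mice labelled male and 10 weeks old, and cells were collected by magnetic selection for the receptor P2RY12. PGC-1αf/f controls (n = 3 arrays) carried a silent, loxP-controlled PGC-1α transgene with an eGFP tag and no Cre. mPGC-1α mice (n = 3 arrays) carried this transgene together with a tamoxifen-inducible Cre/ERT2 at the Cx3cr1 locus, a gene that other mononuclear phagocytes also use. The study's mice had a C57BL/6 background. The labels do not say whether a sample held 1 mouse or several, so the p-values measure the spread between these samples.

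Macrophages and microglia can direct arginine along competing routes. Inducible nitric oxide synthase, encoded by Nos2 and switched on by microbial products and interferon-γ, turns arginine into nitric oxide and citrulline. The arginases, cytosolic Arg1 and mitochondrial Arg2, split arginine into urea and ornithine, and Odc1 turns ornithine into putrescine, the first polyamine. IL-4 acts through Il4ra and the transcription factor STAT6 to induce Arg1 and Retnla in mouse macrophages, and this state is called alternative activation. IL-10 acts through Il10ra and STAT3 and restrains inflammatory genes. In the resting brain, microglia are known for little Nos2 or Arg1.

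Because STAT6 ties several of these genes together, the promoter windows that held a STAT6-type motif are shown. The RefSeq windows (assembly GRCm38.p6, 250 bases before to 50 after the start) covered 5 of the 10 genes with 6 windows, namely Il4ra, Stat6, Odc1, Retnla and both starts of Il4. The motif TTCNNNNGAA, which reads the same on both strands, was found in Retnla and in the second Il4 window. It occurred in 6.95% of all 32851 windows of this length. Capitals mark the motif in the sequences below, and the first motif base lay at -145 from the Retnla start and at -167 from the Il4 start.
Retnla promoter, chr16:48842359-48842658, plus strand: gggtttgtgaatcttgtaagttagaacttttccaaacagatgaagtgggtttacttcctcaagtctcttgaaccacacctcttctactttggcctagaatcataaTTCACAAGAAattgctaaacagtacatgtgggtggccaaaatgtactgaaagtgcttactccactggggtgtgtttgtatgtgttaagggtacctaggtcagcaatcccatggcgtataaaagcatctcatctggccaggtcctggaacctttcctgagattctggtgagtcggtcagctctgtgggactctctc
Il4 second promoter, chr11:53618616-53618915, minus strand: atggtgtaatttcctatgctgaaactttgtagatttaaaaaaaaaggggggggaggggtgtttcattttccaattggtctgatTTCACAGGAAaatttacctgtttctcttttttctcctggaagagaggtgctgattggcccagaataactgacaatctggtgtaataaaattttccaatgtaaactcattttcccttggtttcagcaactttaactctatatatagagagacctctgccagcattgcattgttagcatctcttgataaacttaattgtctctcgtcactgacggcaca
The related motif TTCNNNGAA, with a shorter spacer, was found only in the first Il4 window among these 6, and in 8.3% of all windows. These matches describe letters and do not show binding.

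Each value below is the log2 intensity of a probe minus the 75th percentile of its array, and differences are mPGC-1α minus PGC-1αf/f on this log2 scale. A probe is called well above background from the scanner's own flag. Between 27025 and 30272 of 59305 spots were well above background per array, 0 spots were saturated, and the 75th percentile lay at 1012 to 2138 intensity units. All arrays lay on 1 slide with the groups in different slide rows, so that row and group cannot be told apart. PGC-1αf/f replicate 3 stood apart, with a mean correlation of 0.928 to the other arrays, against 0.962 to 0.972 for the others. Its summed markers of blood monocytes and neutrophils were also the lowest, at 5.15 against 7.22 to 7.73 on the other 5 arrays. Ddx3y, Eif2s3y, Kdm5d and Uty, which lie on the Y chromosome, were not well above background on mPGC-1α replicate 3 (-5.99 to -5.75), while they were on the other 5 arrays. Xist, the RNA of the inactive X chromosome, was well above background on that array and on replicate 2 of both groups, although the labels call all mice male. Values that moved most without replicate 3 of a group are therefore also given without it. Ppargc1a, the gene of PGC-1α, differed by 0.80 (SE 0.35, n = 3 per group, limma adjusted p = 0.306), and the groups overlapped. Among markers of microglia, 13 of 13 genes were well above background on all 6 arrays. Their median difference was -0.27, with 12 of 13 below 0, and -0.14 without PGC-1αf/f replicate 3.

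Of the 10 genes, 8 could be tested, and 0 passed a limma adjusted p of 0.05. The smallest adjusted p among them was 0.194, for Arg2. Over all probes, 20 of 25257 passed, or 0.0792%. At an unadjusted p under 0.05 with groups that did not overlap, 2 of the 8 genes were higher in mPGC-1α microglia by their brightest probe, Nos2 and Arg2, and 0 were lower. This looser rule took 6.86% of 22997 complete probes in the higher direction and 8.67% in the lower direction. By the brightest probe of the 12302 named genes with complete values, the shares were 7.09% higher and 5.36% lower. Nos2 and Arg2 entered the test only through their signal in the mPGC-1α group, which favours the higher direction. The count of 2 higher and 0 lower therefore shows no direction and does not bear on the other genes. The remaining 6 tested genes, Arg1, Odc1, Il4ra, Stat6, Il10ra and Retnla, were well above background on all 6 arrays. Il4 and Il10 were well above background on no array. The plot of signal by array shows all 10 genes.

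**Figure D1:**
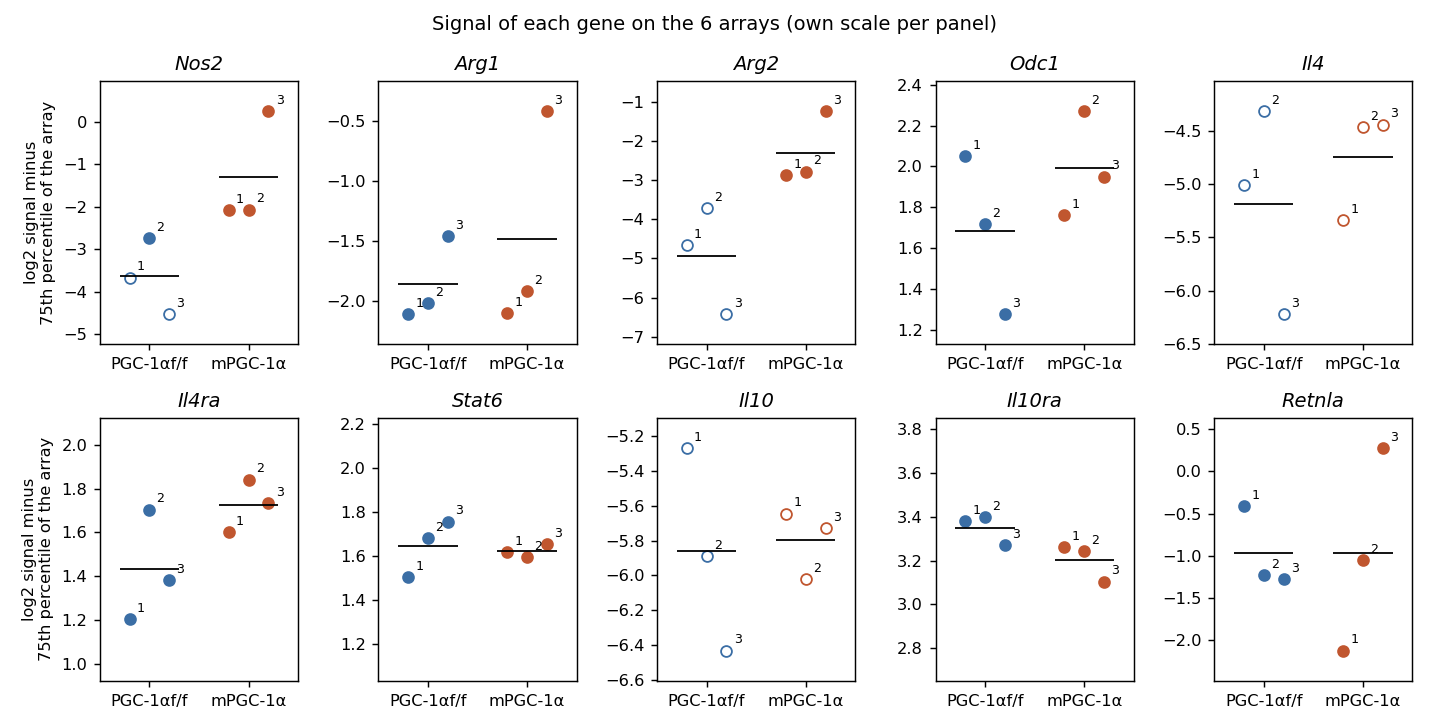
Signal of each of the 10 genes (brightest probe) as log2 intensity minus the 75th percentile of the array, on the vertical axis of each panel, for 3 PGC-1αf/f arrays (blue) and 3 mPGC-1α arrays (orange). Numbers give the replicate, bars the group mean, and open circles arrays where the probe was not well above background. Panels have their own scales and cannot be set against each other. Nos2 and Arg2 show groups that do not overlap, from -4.52 to -2.74 against -2.07 to 0.25 and from -6.41 to -3.71 against -2.87 to -1.24. Il4 and Il10 have open circles throughout.

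To determine whether the nitric oxide arm differed, Nos2 was read first. Its only probe (A_55_P2158741) gave -3.67, -2.74 and -4.52 on PGC-1αf/f replicates 1 to 3, and -2.07, -2.07 and 0.25 on mPGC-1α replicates 1 to 3. As intensities these were 79.6, 233 and 92.9 against 303, 398 and 1741 units. All 3 mPGC-1α arrays were above the highest control, and mPGC-1α replicate 3 lay far above the other 2. The probe was well above background on 1 control array (replicate 2) and on all 3 mPGC-1α arrays. The means were -3.64 ± 0.89 and -1.30 ± 1.34 (SD, n = 3 each). The fitted difference was 2.34 (SE 0.71), with an unadjusted p of 0.0136 and a limma adjusted p of 0.215. Since 2 of the 3 controls were not well above background, no fold is given. It was 1.90 without PGC-1αf/f replicate 3, 1.57 without mPGC-1α replicate 3 and 1.13 without both. Within the slide columns that held an array of each group, mPGC-1α exceeded its control by 1.59 in column 1 and by 0.67 in column 2. The column 1 control was itself not well above background, as was PGC-1αf/f replicate 3, so these Nos2 values are fitted or measured differences and not sizes of a fold.

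The arginases were examined next. Arg1 (A_51_P303160), the cytosolic form and a classical IL-4 target, gave -2.11, -2.02 and -1.46 in the controls, against -2.10, -1.92 and -0.42 in mPGC-1α microglia. Replicates 1 and 2 of both groups were close together, and the third array was the highest in each group. The means were -1.86 ± 0.35 and -1.48 ± 0.92 (SD, n = 3 each), and the groups overlapped. The difference of Arg1 was 0.38 (SE 0.45, limma adjusted p = 0.682). Leaving out mPGC-1α replicate 3 turned its sign to -0.15, and leaving out PGC-1αf/f replicate 3 gave 0.58. The within-column differences of Arg1 were 0.0057 and 0.099.

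Arg2 (A_52_P374897), the mitochondrial form, was then read from its only probe. It gave -4.65, -3.71 and -6.41 in the controls, where no array was well above background, against -2.87, -2.78 and -1.24 in mPGC-1α microglia, where all 3 were. The corresponding intensities were 40.3, 119 and 25.1 units against 174, 243 and 620 units. The groups did not overlap, and mPGC-1α replicate 3 was again the highest. Since the controls set only a limit, Arg2 was at least 2.60-fold higher in the mean of the 3 mPGC-1α arrays. This bound sets the mPGC-1α mean against the control mean in which each array counts with its own probe signal or its lowest well measured signal, whichever is higher. The bound was not computed without replicate 3 of a group, and mPGC-1α replicate 3 raises it. The fitted difference between the measured means of -4.92 ± 1.37 and -2.30 ± 0.91 (SD, n = 3 each) was 2.63 (SE 0.73). This fitted difference, and not the bound, had a limma adjusted p of 0.194 and an unadjusted p of 0.00896. It was 1.88 without PGC-1αf/f replicate 3, 2.10 without mPGC-1α replicate 3 and 1.35 without both. The within-column differences of Arg2 were 1.78 and 0.93.

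Odc1, the gate to polyamine synthesis, was measured by both of its probes on all 6 arrays. The brighter probe (A_55_P1995173) gave 2.05, 1.72 and 1.28 in the controls, against 1.76, 2.27 and 1.95 in mPGC-1α microglia. The groups overlapped, and the difference was 0.31 (SE 0.23, limma adjusted p = 0.516). Without PGC-1αf/f replicate 3, its lowest array, the difference was 0.11, and within the slide columns it was -0.29 and 0.55. The other probe (A_52_P436238) gave -1.89, -2.47 and -2.84 against -1.69, -1.80 and -2.12, a difference of 0.53 (SE 0.26, limma adjusted p = 0.350), and its groups overlapped as well. Without PGC-1αf/f replicate 3 this probe differed by 0.30, and its within-column differences were 0.20 and 0.66. Both Odc1 probes had higher means in mPGC-1α microglia, and neither difference passed the test.

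**Figure D2:**
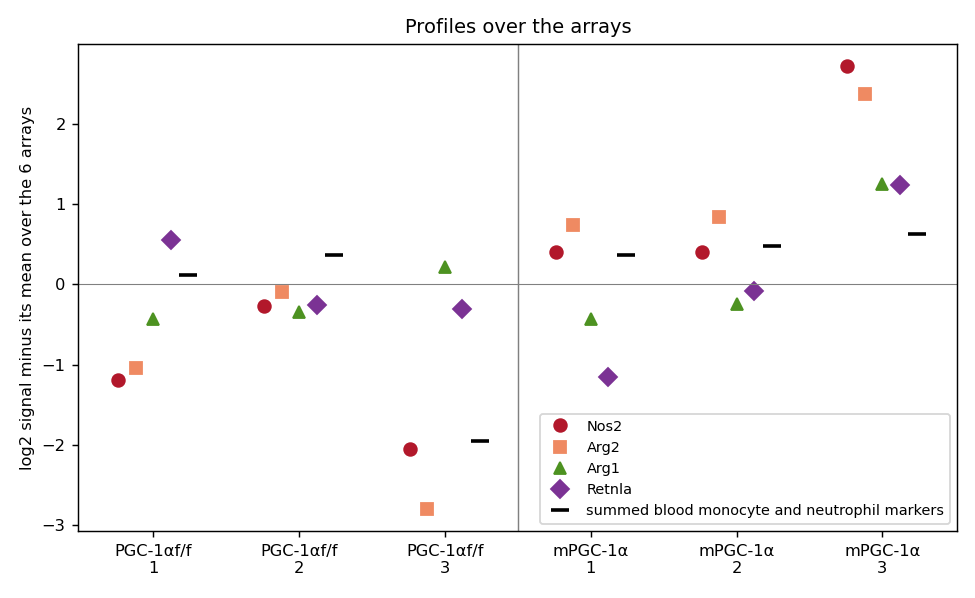
Signal of Nos2, Arg2, Arg1 and Retnla on each array (horizontal axis, group and replicate number), as log2 signal minus its own mean over the 6 arrays (vertical axis), beside the log2 summed signal of 17 blood monocyte and neutrophil marker genes, centred the same way. Nos2 and Arg2 are lowest on PGC-1αf/f replicate 3 and highest on mPGC-1α replicate 3. Arg1 and Retnla share the high value on mPGC-1α replicate 3 but not the low value on PGC-1αf/f replicate 3.

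Markers of other cells moved with these arrays and are given as measured. The summed signal of 17 of 18 blood monocyte and neutrophil markers was 7.22, 7.47 and 5.15 in the controls and 7.47, 7.59 and 7.73 on the mPGC-1α arrays. All 18 of these genes were tested, 17 had differences above 0, and their median difference was 1.75, or 0.35 without PGC-1αf/f replicate 3. Of the 18, 4 (Cxcr2, Elane, Mmp9 and Mpo) entered the test only through their signal in the mPGC-1α group, which favours values above 0. For Ly6g, PGC-1αf/f replicate 3 was the only control with a value in the fit. The 10 border macrophage markers summed to 4.50, 4.46 and 4.38 against 4.32, 4.55 and 5.01, with their highest value on mPGC-1α replicate 3, as for Arg1, Retnla and Nos2. The lymphocyte markers were also highest there, at 3.61 against 2.70 to 3.27 elsewhere, while Cd79a and Klrb1c were well above background on no array. The summed endothelial and mural markers were lowest on PGC-1αf/f replicate 3, at 1.98 against 3.83 to 4.25, with Rgs5 and Tek well above background on no array. The 10 oligodendrocyte markers summed to 4.12, 4.04 and 4.32 in the controls and to 3.80, 3.75 and 3.54 in mPGC-1α microglia, without overlap. Of 9 tested, 8 had differences below 0 and 5 were lower without overlap at an unadjusted p under 0.05, while 0 passed the limma adjusted threshold. Of these 5, Mog and Opalin entered the test only through their signal in the controls, which favours the lower direction. The same looser rule took 5.36% of all 12302 named genes with complete values in the lower direction. The part of these cells in the Nos2 and arginase values was not tested, and in sorted bulk samples fewer cells of a type and less RNA per cell cannot be told apart.

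Next, the IL-4 pathway was examined from ligand to transcription factor. Il4 (A_51_P237865), the T helper cytokine, gave -5.01, -4.32 and -6.22 in the controls, against -5.34, -4.47 and -4.44 in mPGC-1α microglia. None of these values was well above background, and no fold is given. Il4ra, its receptor chain, was well above background on all arrays with both probes. The brighter Il4ra probe (A_51_P464478) gave 1.21, 1.70 and 1.38 against 1.60, 1.84 and 1.73, a difference of 0.29 (SE 0.17, limma adjusted p = 0.401) with overlapping groups. The other Il4ra probe (A_55_P1966189) gave -0.74, -0.65 and -0.66 against -0.78, -0.53 and -0.50, a difference of 0.08 (SE 0.14, limma adjusted p = 0.779), which became -0.051 when arrays were scaled to their median. Stat6 (A_52_P114494), the factor that IL-4 activates, was well above background on all 6 arrays. It gave 1.50, 1.68 and 1.76 in the controls, against 1.62, 1.60 and 1.65 in mPGC-1α microglia. The Stat6 difference was -0.02 (SE 0.13, limma adjusted p = 0.936), and without PGC-1αf/f replicate 3 it was 0.030.

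Retnla (A_51_P257951), which carries the STAT6-type motif shown above, gave -0.41, -1.23 and -1.27 in the controls, against -2.12, -1.05 and 0.27 in mPGC-1α microglia. The mPGC-1α arrays held both the lowest and the highest of the 6 values. The group means were -0.97 ± 0.48 and -0.97 ± 1.20 (SD, n = 3 each), and the difference was 0.0048 (SE 0.58, limma adjusted p = 0.997). Without mPGC-1α replicate 3 the Retnla difference was -0.62, and within the slide columns it was -1.71 and 0.17. With this spread, a shift of the size of its SE could not be detected.

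Moreover, the IL-10 receptor was read with its ligand. Il10 (A_51_P430766) gave -5.27, -5.89 and -6.43 against -5.65, -6.02 and -5.73, none of them well above background. Il10ra, the ligand-binding receptor chain, was bright on every array. Its brighter probe (A_55_P2830788) gave 3.38, 3.40 and 3.27 in the controls, against 3.26, 3.24 and 3.10 in mPGC-1α microglia. All 3 mPGC-1α arrays lay below the lowest control by this probe, with a difference of -0.15 (SE 0.13, unadjusted p = 0.28, limma adjusted p = 0.568). The other Il10ra probe (A_55_P2736330) gave 1.25, 1.25 and 1.39 against 1.14, 0.85 and 0.56, again without overlap. Its difference was -0.45 (SE 0.17, unadjusted p = 0.0371, limma adjusted p = 0.276), and it lay between -0.59 and -0.30 when any single array was left out. Both Il10ra probes thus read lower on the mPGC-1α arrays, and neither passed the adjusted threshold. Groups that lay apart were common. Of the 12302 named genes with complete values, 1326 lay wholly below the controls and 1497 wholly above by their brightest probe. The 13 microglia markers had a median difference of -0.27, and the part of this shift in the Il10ra values was not tested.

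**Figure D3:**
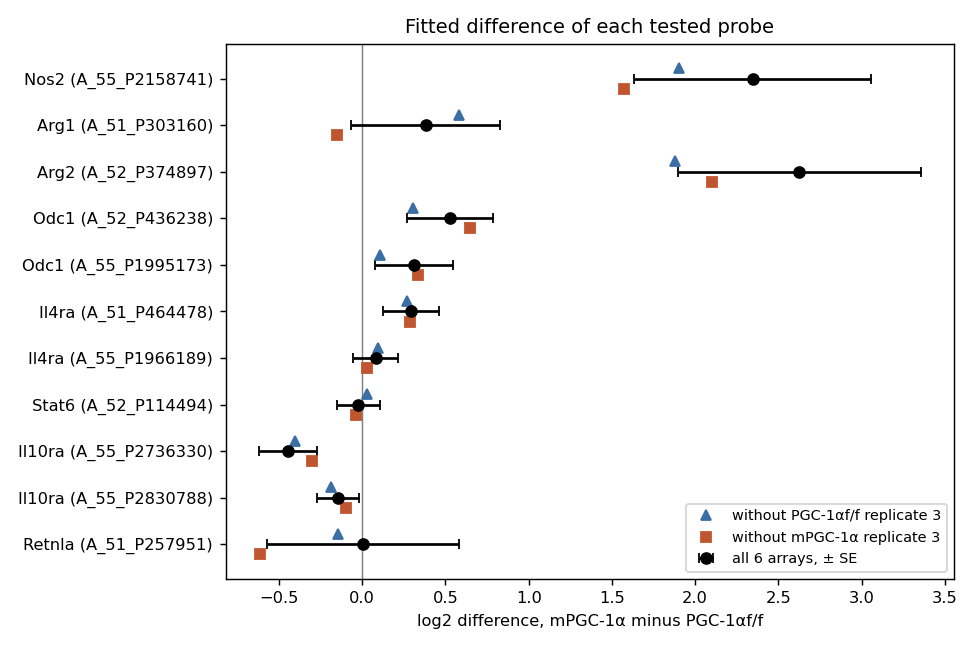
Fitted log2 difference, mPGC-1α minus PGC-1αf/f (horizontal axis), of the 11 tested probes of the 8 tested genes, with black points for all 6 arrays and bars of 1 SE. Triangles leave out PGC-1αf/f replicate 3 and squares leave out mPGC-1α replicate 3. Both Il10ra probes stay below 0 in all 3 versions, and Arg1, Stat6 and Retnla lie on both sides of 0. The Nos2 and Arg2 points stay above 0, but they are fitted to controls of which 2 (Nos2) or all 3 (Arg2) were not well above background, and they are no bounds.

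To place these genes in their pathways, 6 lists with 128 measured genes were read from the same fit. Of the 103 genes tested, 0 passed a limma adjusted p of 0.05, and the smallest was 0.0970, for Klf4. An unadjusted p under 0.05 was reached by 23 genes, all higher in mPGC-1α microglia. Among all 13127 named genes tested, 1037 were higher (7.9%) and 769 lower (5.86%) at that p. In 18 of the 23 genes the groups did not overlap, of 92 with complete values. The same rule took 872 higher (7.09%) and 660 lower (5.36%) of all 12302 named genes with complete values, and the median difference was 0.02 against 0.15 for the lists together. Scaling the arrays to their median lowered the median of all named genes to -0.11 and that of the lists to 0.0058. Under this scaling the medians of the IL-4 and the classical activation lists turned to -0.06 and -0.10, while those of the other 4 lists stayed above 0. Of the 103 genes, 4 had passed the background filter only through the mPGC-1α arrays and 1 only through the controls.

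The genes of arginine supply, nitric oxide synthesis and its cofactor tetrahydrobiopterin numbered 15 tested of 18. Their median difference was 0.37, or 0.26 without PGC-1αf/f replicate 3, with 13 above 0 and 2 below. At an unadjusted p under 0.05 without overlap, 5 were higher and 0 lower, and 1 of these 5, Gchfr, had passed the filter only through the mPGC-1α arrays. Ass1, which begins the recycling of citrulline to arginine, differed by 1.45 (SE 0.49, limma adjusted p = 0.241), or 0.87 without PGC-1αf/f replicate 3. Gchfr, the feedback partner of the cofactor's first enzyme, differed by 1.14 (SE 0.39, limma adjusted p = 0.242) with 1 control array well above background, or 0.65 without PGC-1αf/f replicate 3. Nos3, the endothelial synthase, differed by 1.02 (SE 0.41, limma adjusted p = 0.286), or 0.51 without PGC-1αf/f replicate 3. Gch1, which encodes the first enzyme of cofactor synthesis, was chosen after its values were seen. It gave -0.83, -0.65 and -0.60 against -0.32, 0.10 and 0.19, a difference of 0.69 (SE 0.17, limma adjusted p = 0.167) that was 0.73 without PGC-1αf/f replicate 3. The lowest differences were -0.22 for Ddah2, -0.03 for Asl and 0.05 for Qdpr, of which Asl and Qdpr changed sign without PGC-1αf/f replicate 3. Nos1, the neuronal synthase, and Nostrin were well above background on no array.

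Downstream of the arginases, 16 of 21 measured genes of ornithine and polyamine metabolism were tested. Their median difference was 0.14, or 0.063 without PGC-1αf/f replicate 3, with 12 above 0 and 4 below. By the same rule 1 gene was higher and 0 were lower. That gene was Prodh, the first enzyme of proline breakdown, at 0.66 (SE 0.21, limma adjusted p = 0.232). Azin2, an inhibitor of the antizymes that restrain Odc1, differed by 0.92 but by 0.35 without PGC-1αf/f replicate 3. Sms, spermine synthase, differed by 0.38 (SE 0.19). At the low end stood Oat, ornithine aminotransferase, at -0.09 and the polyamine oxidase Paox at -0.05, and both changed sign when replicate 3 of 1 group was left out. Otc and Agmat, other enzymes on these routes, were well above background on no array.

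For IL-4 and IL-13 receptor signalling, 18 of 19 genes were tested, with 11 above 0 and 7 below. Their median difference was 0.07, and it turned to -0.03 without mPGC-1α replicate 3. Irs1, an adaptor that docks at the IL-4 receptor, gave -0.85, -1.14 and -1.47 against -0.27, -0.37 and -0.54. All 3 mPGC-1α values of Irs1 lay above the controls, and the difference was 0.76 (SE 0.19, limma adjusted p = 0.164). Its relative Irs2 differed by 0.35 (SE 0.13, limma adjusted p = 0.272), also without overlap. The kinase Jak3 differed by 0.37, or 0.099 without mPGC-1α replicate 3. Among genes with values on all 6 arrays, Il33, Tyk2 and Stat5a were the lowest at -0.56, -0.38 and -0.15. Without mPGC-1α replicate 3, Il33 and Tyk2 were -0.30 and -0.15, and Stat5a became 0.055 without PGC-1αf/f replicate 3. Il13, the sister cytokine of Il4, was well above background on no array.

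Among other markers of alternative activation, 18 of 25 measured genes were tested and the median difference was 0.42, with 14 above 0 and 4 below, or 0.30 without PGC-1αf/f replicate 3. Klf4, a transcription factor that cooperates with STAT6 in macrophages, gave 0.90, 1.61 and 0.87 against 2.29, 2.46 and 2.58. The Klf4 groups stood well apart, with a difference of 1.32 (SE 0.23, limma adjusted p = 0.0970) that was 1.19 without PGC-1αf/f replicate 3. Fn1, which encodes fibronectin, differed by 1.75 (SE 0.88, limma adjusted p = 0.355), or 0.63 without PGC-1αf/f replicate 3, and 2 control arrays were well above background. Chil3, a secreted chitinase-like protein with a near-identical copy in Chil4, differed by 1.45 (SE 0.84), and by 0.37 without that array. Both values were thus smaller without that array. Cd200r1, Tgm2 and Mgl2 were the lowest at -0.44, -0.37 and -0.20, of which Cd200r1 was -0.27 without PGC-1αf/f replicate 3, and Tgm2 and Mgl2 were -0.57 and -0.31 without mPGC-1α replicate 3. Ccl22, Pdcd1lg2, Retnlb, Alox15 and Cdh1 were well above background on no array.

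In the IL-10 family, receptor and response list, 13 of 17 genes were tested, with a median difference of 0.45, or 0.16 without mPGC-1α replicate 3. There were 10 genes above 0 and 3 below, and Bcl3, Socs3 and Il20rb were higher without overlap at an unadjusted p under 0.05. Il20rb, a receptor chain named after its values were seen, and Il1rn had passed the filter only through the mPGC-1α arrays. Bcl3, a nuclear IκB protein, differed by 1.52 (SE 0.43, limma adjusted p = 0.197), and by 1.45 without PGC-1αf/f replicate 3. Socs3, the feedback inhibitor induced through STAT3, gave 1.66, 2.62 and 2.44 against 2.80, 3.39 and 3.35, a difference of 0.94 (SE 0.29, limma adjusted p = 0.216). Nfil3, a transcription factor of the IL-10 response, differed by 0.82 (SE 0.27, limma adjusted p = 0.236). Il1rn, which encodes the interleukin-1 receptor antagonist and was also chosen after its values were seen, differed by 4.20 (SE 1.25, limma adjusted p = 0.222) with 5 arrays in the fit and 1 control array well above background. The Il1rn difference was 3.05 without PGC-1αf/f replicate 3, 3.39 without mPGC-1α replicate 3 and 2.25 without both. Il4i1, Etv3 and Il24 were the lowest at -0.59, -0.38 and -0.31, and Etv3 was -0.19 without mPGC-1α replicate 3.

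Of the genes of classical activation and Nos2 induction, 23 of 28 were tested, and their median difference of 0.04 lay close to that of all named genes and was -0.02 without mPGC-1α replicate 3. The 13 genes above 0 and 10 below included 4 that were higher without overlap at an unadjusted p under 0.05. Il1b, the inflammasome-processed cytokine, gave -0.02, 1.60 and -0.50 against 2.16, 1.90 and 3.14, a difference of 2.04 (SE 0.57, limma adjusted p = 0.194). Cxcl10, an interferon-induced chemokine, differed by 1.35 (SE 0.43, limma adjusted p = 0.227). Tnf and Nfkbia, chosen after their values were seen, differed by 1.03 and 0.75. The receptor genes of interferon-γ lay near 0, at 0.06 for Ifngr1 and -0.08 for Ifngr2, while Irf1, a factor that drives Nos2, stood at -0.08. Cybb, of the phagocyte oxidase, differed by 1.19, and by 0.44 without PGC-1αf/f replicate 3. Among genes with values on all 6 arrays, Nfkb1, Il6 and Cd86 were the lowest at -0.42, -0.23 and -0.14. Of these, Nfkb1 was -0.12 without mPGC-1α replicate 3 and Il6 became 0.16 without PGC-1αf/f replicate 3. Il12a and Il12b were well above background on no array.

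**Figure D4:**
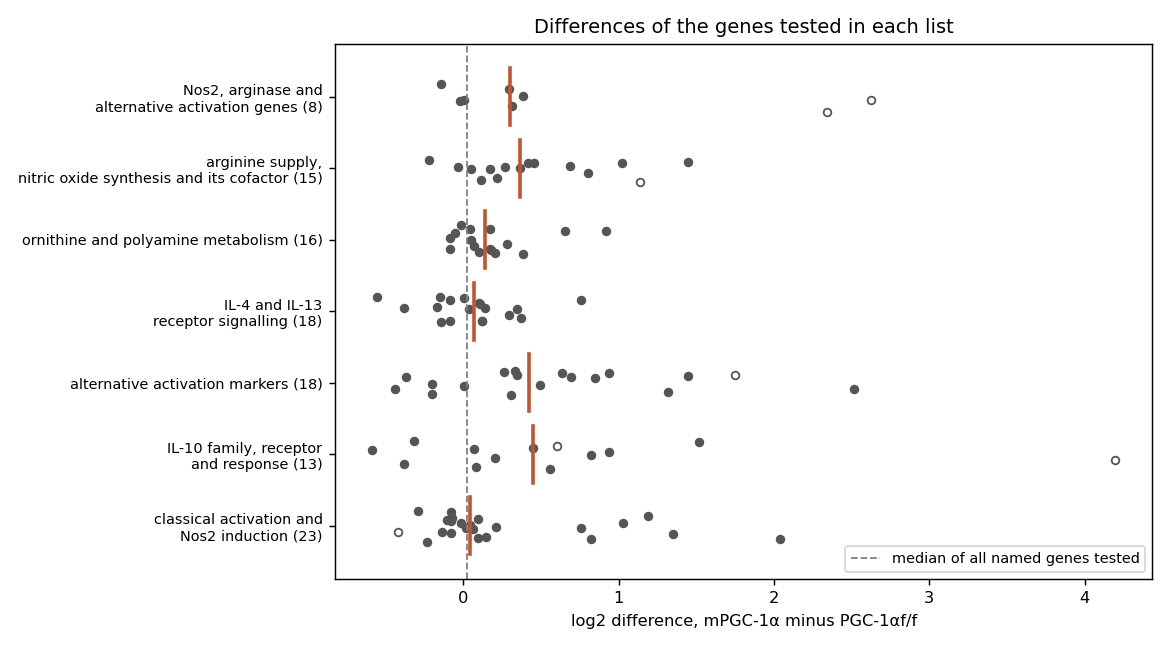
Log2 difference, mPGC-1α minus PGC-1αf/f (horizontal axis), of every tested gene in the 10 genes studied and in the 6 pathway lists (vertical axis, number tested in brackets). Filled points were well above background on all 6 arrays, open points were not, orange bars give the median of each list, and the dashed line gives the median of all named genes tested, 0.02. Vertical scatter within a list carries no value. List medians run from 0.04 for classical activation to 0.45 for the IL-10 list.

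Finally, genes with the most similar profile over the 6 arrays were sought among 11565 genes well above background on all arrays, by the root mean square difference of centred log2 values. Nos2 itself was not well above background on PGC-1αf/f replicates 1 and 3, and its profile there rests on those dim values. For Nos2 the closest were Gadd45b (0.330), a stress-induced gene of the NF-κB response, Saa1 (0.444), an acute-phase protein with near-identical copies, and G0s2 (0.476), an inhibitor of lipolysis. Their own differences were 2.30, 2.74 and 1.57, and 0 of the 3 passed the adjusted threshold. Differences in the direction of Nos2 follow from choosing genes by likeness to its profile, and are no separate result. For Arg1 they were Cdc42ep2 (0.223), Rprl2 (0.231) and Gm9767 (0.247). For Odc1 they included Cntnap1 (0.0566), known from neurons, and Atrnl1 (0.0948). The summed neuron markers were 4.04, 3.66 and 3.89 in the controls and 4.06, 3.93 and 3.89 on the mPGC-1α arrays, with Slc17a7 well above background on no array. These likenesses cover 6 arrays and describe profiles only.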

How the data were processed

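Total RNA was amplified, labelled with Cy5 and hybridized to 1-colour Agilent arrays. The deposited scanner files hold spot intensity from Feature Extraction 11.5.1.1 (per the file headers), which the authors' scanner software had background-subtracted and corrected for spatial trends. The deposited series matrix held the same intensity without log or scaling between arrays. The methods name GeneSpring for normalization and no test per gene. Groups and replicate numbers came from the labels, and 0 columns of samples from other series were used.

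Control spots and outlier spots were left out, the 75th percentile of an array was subtracted from its log2 intensity, and spots of a probe were averaged. The scanner's flag had to hold for at least 0.5 of the spots of a probe. Probes that met this on every array of either group (or both) entered limma 3.58.1 with lmFit and eBayes, two-sided and without covariates, in R 4.3.3 and the package data.table (version 1.17.8). Of 56605 probes, 25333 passed and 25257 had a p, adjusted over all of them by Benjamini-Hochberg at 0.05. The code was tested on simulated data. The number of arrays limits the precision.

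Accessions were matched to RefSeq symbols (GRCm38.p6, names and promoter windows only), and 33767 probes had 1 symbol. The brightest tested probe with values on all 6 arrays stood for a gene where there was one. Amd1 and Ear11 matched no probe. Probe specificity for close paralogs was not tested.

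The 10 genes, the lists and the tests were chosen with earlier results of these data known. Named were all 10 genes, the 3 highest and 3 lowest genes per list with complete values, and the 3 closest profiles for Nos2, Arg1 and Odc1. A few genes that this rule takes are not reported here by name. Alternatives (19, of which 1 was added after seeing the data, leaving out replicate 3 of both groups) covered scaling (quantile, median, detected probes, none), normexp with an offset of 50 on median signals, filters, array weights, the replicate block, a trended robust eBayes, slide column as a random block, means over probes and leaving out each array. Same-numbered arrays had correlations of their deviations of 0.186, 0.0828 and 0.0414, and the samples were therefore treated as unpaired. Figures used Python 3.11.15, matplotlib 3.10.9, pandas 2.3.3 and numpy 2.4.6.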

Additional observations from a re-analysis of the deposited data

How the results depend on the processing

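The count of the 10 genes past the adjusted threshold was 0 in 18 of 19 alternatives, leaving out each array (0 to 0) included. It was 2 (Nos2 and Arg2, at 2.31 and 2.59) with the deposited table without normalization, where limma gave all probes a shared variance. The pathway genes past it numbered 5 there (Bcl3, Chil4, Fn1, Il1b and Il1rn), 2 with array weights (Irs1 and Klf4) and 0 otherwise. The looser count of 2 was 0 when all 6 arrays had to be well above background, which removes Nos2 and Arg2 by construction, and 2 to 3 when 1 array was left out. With the replicate number as a block (replicate block), 0 of the 10 genes, 0 pathway genes and 0 probes passed. Each PGC-1αf/f array correlated best with its own number, a hint from the data only. Probes past the threshold numbered 20 by the main setting and 0 to 754 across alternatives.

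Nos2 ranged from 1.13 to 2.80 and Arg2 from 1.35 to 3.23, both lowest without replicate 3 of both groups. Odc1 (0.11 to 0.50), Il4ra (0.16 to 0.43) and Il10ra (-0.28 to -0.10, or -0.30 as the mean over its probes) kept their sign, while the other Il4ra probe turned to -0.0514 with median scaling. Arg1 ran from -0.15 to 0.69 and Stat6 from -0.0965 to 0.0299 when 1 array was left out, and Stat6 was 0.0146 without replicate 3 of both groups and -0.16 with median scaling. Retnla reversed to -0.0323 (quantile), -0.13 (median), -0.0233 (detected probes), -0.0890 (normexp), -0.0304 (no normalization), -0.0601 (array weights), -0.20 (slide column block) and -0.77 (without replicate 3 of both groups), and ran from -0.62 to 0.58 when 1 array was left out. The cause was not tested. Signal over background limits Il4, Il10, Nos2 and Arg2, and an adjusted p above the threshold does not show equal levels.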
